A study of Mus musculus with 9 samples.

Results

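The genes described here are the 41 rows of a deposited table of 11931 genes whose names start with Nduf, the mouse prefix of genes for subunits and assembly factors of respiratory complex I. They were taken by name alone, and all 41 passed a filter on low values and were tested. By their known roles, 7 encode core catalytic subunits, 3 encode accessory subunits with Ndufs or Ndufv names, 12 encode accessory subunits with Ndufa names and 12 encode membrane arm subunits with Ndufb or Ndufc names. A further 5 encode assembly factors, and 2, Ndufa4 and Ndufa4l2, form a small family of their own. Below, membrane arm stands for the Ndufb and Ndufc names alone, although some Ndufa-named subunits, such as Ndufa3, also span the membrane. Ndufs5, Ndufa11, Ndufb1, Ndufb1-ps, Ndufb4b, Ndufb4c, Ndufaf4, Ndufaf5 and Ndufaf8 were not analysed here, and the table held 0 mitochondrially encoded genes, so the core subunits made inside the mitochondrion were not analysed here either.

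Messenger RNA was measured in 9 libraries of normal mammary fibroblasts (NMFs), 3 from NMFs grown with 4T1-GFP cells for 5 days, 3 from NMFs grown with them for 3 days and 3 from NMFs kept alone for 5 days. The NMFs came from the fat pads of female BALB/c mice aged 12 weeks, recovered for 1 week on collagen and were plated at 300000 cells. In the co-cultures 100000 4T1-GFP cells were laid over them after 24 h. 4T1 is a carcinoma cell line of the BALB/c mammary gland, here marked with green fluorescent protein. The NMFs were recovered by sorting cells without that protein that carried podoplanin (PDPN), a surface protein of fibroblasts. No monoculture of 3 days was analysed, so between the 3-day co-culture and the monoculture the carcinoma cells and the days in culture cannot be told apart. Nothing in the labels says that the replicates were separate cultures or animals, so p-values measure the spread between these libraries, which may be technical. The values are normalised read counts of libraries made from the 3′ ends of transcripts, in which each library was scaled by a factor of its own. The reads behind them numbered 1459381 to 1987168 in the 5-day co-cultures, 1048471 to 2579766 in the 3-day co-cultures and 2623911 to 3567326 in the monocultures. The lowest read number of any Nduf gene in any library was 11.

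Complex I is the entry point of the mitochondrial respiratory chain: it takes electrons from NADH, passes them along iron-sulphur clusters to ubiquinone, and pumps protons across the inner membrane. Its L shape has an arm in the matrix, which holds the catalytic core, and an arm in the membrane, which holds the proton pumps and is lined by many small accessory subunits. Most of its subunits are encoded in the nucleus and imported, and dedicated assembly factors join pre-built modules. In fibroblasts, which can draw much of their energy from glycolysis, the respiratory chain also serves to reoxidise NADH for biosynthesis.

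After 5 days with 4T1 cells, 14 of the 41 Nduf genes were higher than in the monocultures and 1, Ndufa4l2, was lower. Of the 14, 9 encode membrane arm subunits with Ndufb or Ndufc names and 4 encode accessory subunits with Ndufa names. The last 1, Ndufs1, encodes a core subunit. Of the 5 assembly factors, 0 passed the test (limma on log2(value + 1), Benjamini-Hochberg adjusted p under 0.05 over 10639 genes). The 14 genes made up 34.1% of the members, where 12.6% of all tested genes were called higher and 24.0% in either direction. The 1 lower gene made up 2.44%, where 11.4% of all tested genes were called lower. The log2 fold change was positive for 37 of the 41 members, with a median of 0.41 against -0.01 over all tested genes. An unadjusted p under 0.05 was found in 20 of the 41 members and in 3777 of all 10639 tested genes. In 18 members every 5-day library lay above every monoculture library, a share of 43.9% where 20.8% of all tested genes did so. In 2 members every 5-day library lay below, where 20.1% of all tested genes did so. Replicate 2 of the 5-day co-culture is a library whose column names no 4T1 cells and was placed by elimination. Without it 9 members in place of 15 were called, and Ndufa12, Ndufa3, Ndufb2, Ndufb6, Ndufb7 and Ndufc2 lost their calls.

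**Figure D1:**
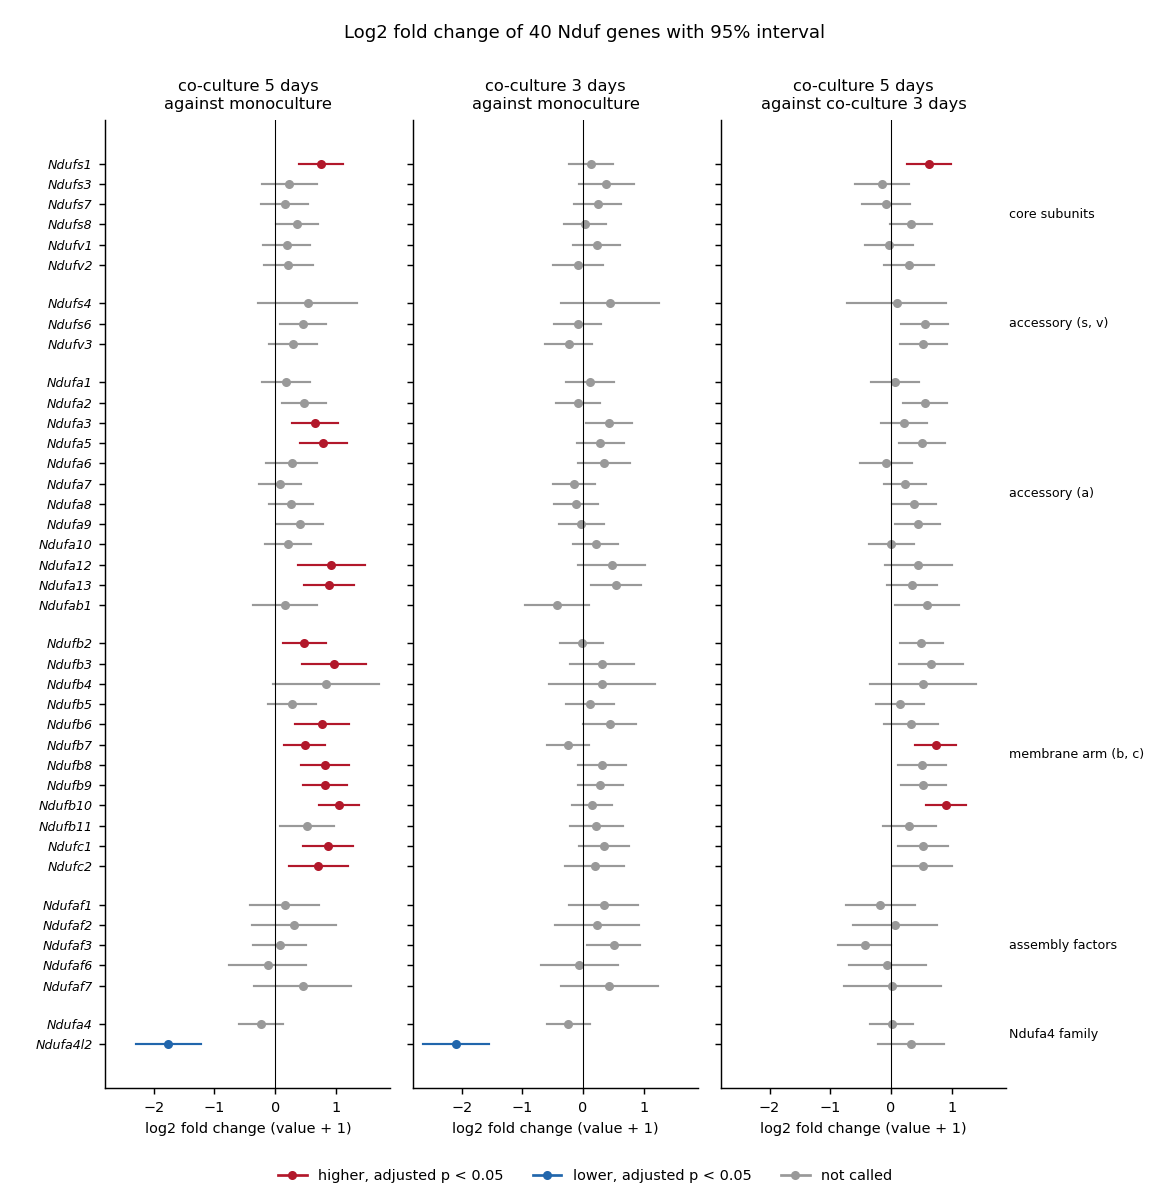
Log2 fold change on the log2(value + 1) scale (x axis) of 40 of the 41 Nduf genes (y axis, grouped by role), with 95% intervals as bars and 1 panel for each comparison. Red points passed the test as higher (14, 0 and 3 genes from the left panel to the right panel) and blue points as lower (1, 1 and 0 genes).

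Summed over the 41 members, the normalised counts were 18979.0, 20466.8 and 19086.1 in the 5-day co-cultures, 13605.4, 16642.6 and 15842.3 in the 3-day co-cultures, and 13490.1, 14946.9 and 13837.8 in the monocultures. All 5-day sums lay above all other sums. Of the 3-day sums 1 lay inside the range of the monocultures and 2 lay above it. As a share of all values in a library, the members took 1.05% to 1.11% in the 5-day co-cultures, 0.781% to 0.927% in the 3-day co-cultures and 0.805% to 0.872% in the monocultures. For membrane arm subunits with Ndufb or Ndufc names, the mean sum relative to the monoculture mean was 1.65 times at 5 days and 1.16 times at 3 days. It was 1.38 times at 5 days and 1.14 times at 3 days for accessory subunits with Ndufa names, and 1.17 and 1.07 times for core subunits. For the accessory subunits with Ndufs or Ndufv names it was 1.32 times at 5 days and 0.951 times at 3 days, and for the Ndufa4 family 0.550 and 0.516 times. For the assembly factors the same ratios were 1.11 times at 5 days and 1.25 times at 3 days. The cells were measured in bulk, so a change in the number of cells of a type and a change in RNA per cell cannot be told apart.

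**Figure D2:**
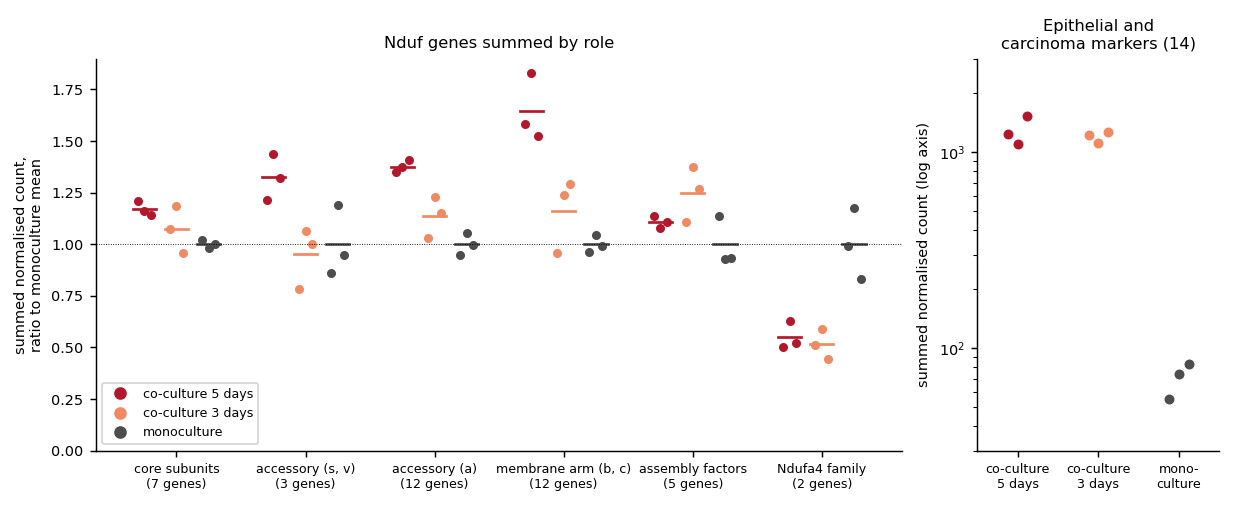
Left, normalised counts summed over the Nduf genes of each role (x axis), as a ratio to the monoculture mean (y axis). There is 1 point per library and a line at each group mean. The sums of membrane arm subunits with Ndufb or Ndufc names averaged 1.65 times the monoculture mean at 5 days and 1.16 times at 3 days. Right, the summed normalised count of 14 epithelial and carcinoma markers on a log axis, from 1100.1 to 1531.7 in the 5-day and 1114.6 to 1275.7 in the 3-day co-cultures, and from 54.9 to 82.8 in the monocultures.

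The 12 membrane arm subunits with Ndufb or Ndufc names do not carry out catalysis themselves but help to hold the proton-pumping arm together. Against monoculture 9 of these 12 rose at 5 days (75%, where 12.6% of all tested genes did) and 0 fell. All 12 had a positive log2 fold change, with a median of 0.79. The largest of these was that of Ndufb10, a subunit on the intermembrane-space face whose cysteines form disulphide bonds. Ndufb10 had 813.1, 802.8 and 780.3 normalised counts in the 5-day co-cultures, 398.5, 465.7 and 417.4 in the 3-day co-cultures, and 360.2, 411.5 and 386.9 in the monocultures. The 5-day libraries were close to one another and far above the rest, and the 3-day libraries overlapped the monocultures. Ndufb10 rose by 1.05 on the log2 scale at 5 days against monoculture (95% interval 0.72 to 1.38, limma adjusted p = 0.00013), a fold of 2.07. The gene lies on the minus strand of mm10 at chr17:24722060-24724478, and its exons overlap no other annotated gene.

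Ndufb7, a small subunit that also faces the intermembrane space, moved in a different pattern. It had 557.1, 596.1 and 478.2 normalised counts in the 5-day co-cultures, 315.5, 338.3 and 321.4 in the 3-day co-cultures, and 361.4, 386.9 and 411.3 in the monocultures. The 3 groups did not overlap, with the 3-day co-cultures lowest. The rise at 5 days against monoculture was 0.49 on the log2 scale (95% interval 0.15 to 0.83, limma adjusted p = 0.036), and the 3-day value of -0.25 (-0.59 to 0.09) did not pass the test. Ndufb7 lies on the plus strand of mm10 at chr8:83566671-83571626, with no overlapping gene. Its 5-day call was lost in 6 of 17 alternatives, 1 of them quantile normalization and the others each leaving out 1 library.

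Ndufb10 and Ndufb7 were also the pair of membrane arm genes that were higher at 5 than at 3 days, and the 250 bases before their RefSeq starts are shown for that reason. In both genes the RefSeq start lies inside the GENCODE bounds given above, so the stretch reaches into them. They are from RefSeq's GRCm38.p6 table and run 5′ to 3′ in the direction of the gene. Ndufb10 is at chr17:24724424-24724673 on the minus strand with a GC content of 54.4%, and Ndufb7 is at chr8:83566508-83566757 on the plus strand with 63.6%. Capitals would mark the letters of the NRF1, ETS or YY1 motifs, spelled out with the promoter counts, and neither stretch held any of them.
Ndufb10: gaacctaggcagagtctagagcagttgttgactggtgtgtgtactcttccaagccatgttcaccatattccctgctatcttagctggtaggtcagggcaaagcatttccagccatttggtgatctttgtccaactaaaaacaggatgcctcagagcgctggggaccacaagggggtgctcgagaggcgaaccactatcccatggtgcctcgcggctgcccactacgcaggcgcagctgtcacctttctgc
Ndufb7: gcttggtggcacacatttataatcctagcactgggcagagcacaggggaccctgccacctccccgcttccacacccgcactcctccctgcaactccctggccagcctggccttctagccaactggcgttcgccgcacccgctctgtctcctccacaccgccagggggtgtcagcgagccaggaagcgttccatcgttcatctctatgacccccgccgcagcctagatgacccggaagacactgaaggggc

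Ndufb9, an accessory subunit with the LYR motif that binds the mitochondrial acyl carrier protein, had 1266.9, 1299.3 and 1308.4 normalised counts in the 5-day co-cultures, 719.0, 1066.5 and 925.2 in the 3-day co-cultures, and 695.6, 770.5 and 728.8 in the monocultures. Its 5-day libraries were tightly grouped above all others, and the 3-day library with the lowest value lay among the monocultures. It rose by 0.82 on the log2 scale at 5 days against monoculture (95% interval 0.45 to 1.19, limma adjusted p = 0.0025). Ndufb8, a subunit commonly probed with antibodies as a sign of assembled complex I, had 772.7, 787.0 and 528.1 normalised counts in the 5-day co-cultures, 433.4, 492.9 and 524.5 in the 3-day co-cultures, and 342.9, 419.2 and 407.5 in the monocultures. One 5-day library stood close to the highest 3-day library, and all libraries of both co-cultures lay above the monocultures. Ndufb8 rose by 0.82 at 5 days (0.42 to 1.21, limma adjusted p = 0.0045).

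Ndufc1 and Ndufc2, small membrane-spanning subunits, both rose. Ndufc1 had 380.1, 558.8 and 495.6 normalised counts in the 5-day co-cultures, 257.4, 350.1 and 384.0 in the 3-day co-cultures, and 269.2, 238.4 and 264.8 in the monocultures. Its log2 fold change at 5 days against monoculture was 0.87 (95% interval 0.46 to 1.29, limma adjusted p = 0.0038). Ndufc2 had 338.7, 556.0 and 506.9 in the 5-day co-cultures, 240.8, 336.2 and 396.5 in the 3-day co-cultures, and 347.8, 256.7 and 241.0 in the monocultures. It rose by 0.71 on the log2 scale at 5 days (standard error 0.23, limma adjusted p = 0.032). Of the 14 genes that rose, Ndufc2 alone had 5-day and monoculture libraries that overlapped, the lowest 5-day library lying below the highest monoculture. Its call was lost in 5 of 17 alternatives, namely quantile normalization and leaving out replicate 2 or 3 of the 5-day co-culture or of the monoculture.

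The other 3 membrane arm genes that rose were Ndufb3, Ndufb6 and Ndufb2, all small proteins that cross the inner membrane. Ndufb3 had 193.2, 262.6 and 313.4 normalised counts in the 5-day co-cultures, 104.6, 175.4 and 215.6 in the 3-day co-cultures, and 115.7, 135.6 and 133.0 in the monocultures. Its log2 fold change at 5 days against monoculture was 0.97 (standard error 0.25, limma adjusted p = 0.0094). Ndufb6 had 729.6, 911.8 and 563.0 in the 5-day co-cultures, 455.0, 563.9 and 727.6 in the 3-day co-cultures, and 386.2, 453.8 and 427.4 in the monocultures. Its log2 fold change was 0.77 (95% interval 0.33 to 1.21, limma adjusted p = 0.012). In both genes the co-cultures at 5 and 3 days overlapped, and the 5-day libraries lay above the monocultures. Ndufb2 had 526.5, 691.1 and 644.2 in the 5-day co-cultures, 400.2, 421.8 and 488.3 in the 3-day co-cultures, and 442.5, 451.8 and 431.3 in the monocultures. It rose by 0.48 (0.13 to 0.83, limma adjusted p = 0.047). The call of Ndufb2 was the least firm, being lost in 9 of 17 alternatives, among them median-of-ratios, TMM and quantile scaling and edgeR on recovered reads. The 3 membrane arm genes that did not pass at 5 days against monoculture were Ndufb11 (log2 fold change 0.52, limma adjusted p = 0.081), Ndufb5 (0.27, 0.33) and Ndufb4 (0.84, 0.16). Ndufb4 had 67.4, 184.4 and 86.1 normalised counts in the 5-day co-cultures, 53.1, 45.9 and 143.3 in the 3-day co-cultures, and 40.8, 82.7 and 54.0 in the monocultures. Each co-culture had 1 library far above the other two, and the 95% interval was -0.03 to 1.71. Ndufb4 has near-identical copies in the mouse genome, so its values are uncertain.

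**Figure D3:**
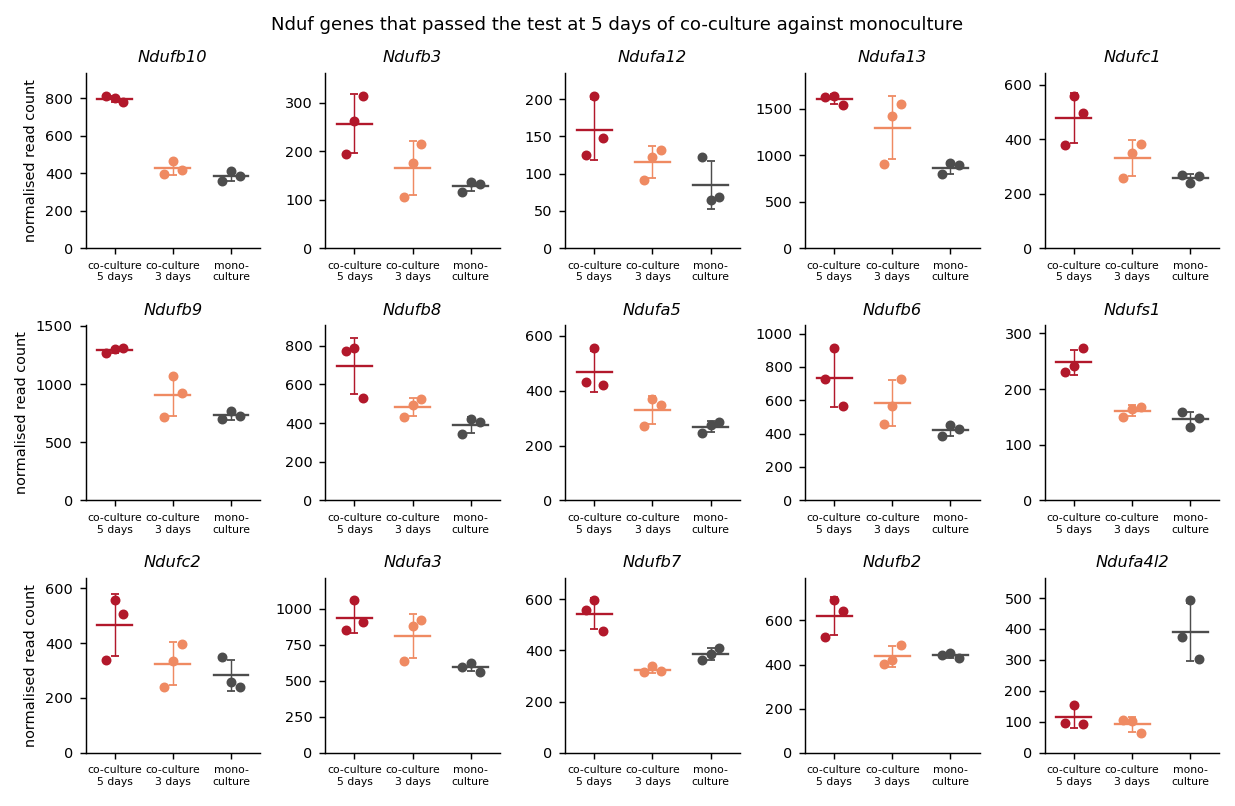
Normalised read count (y axis, from 0) of the 15 Nduf genes that passed the test at 5 days of co-culture against monoculture, with 1 point per library, a line at the mean and bars of 1 SD (n = 3 in each group). Ndufb10 lies between 780.3 and 813.1 in the 5-day co-cultures and at or below 465.7 elsewhere, and Ndufa4l2 lies at or below 154.6 in both co-cultures and at or above 303.4 in the monocultures.

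Of the 12 accessory subunits with Ndufa names, 4 rose at 5 days against monoculture (33.3%, where 12.6% of all tested genes did) and 0 fell. All 12 had a positive log2 fold change, with a median of 0.34. Ndufa13, also known as GRIM-19 and first described as a cell death regulator, had 1627.2, 1639.2 and 1540.6 normalised counts in the 5-day co-cultures, 910.0, 1424.3 and 1551.3 in the 3-day co-cultures, and 795.3, 915.2 and 892.1 in the monocultures. A pair of its 3-day libraries lay near the 5-day level and the other lay inside the monoculture range. It rose by 0.89 on the log2 scale at 5 days (standard error 0.20, limma adjusted p = 0.0035). Its exons overlap those of Tssk6 on the opposite strand, which did not pass the test (log2 fold change 0.81, limma adjusted p = 0.22). Ndufa5 belongs to the ubiquinone-binding module of the matrix arm. It had 431.3, 555.1 and 422.0 in the 5-day co-cultures, 270.7, 368.2 and 349.2 in the 3-day co-cultures, and 245.7, 275.4 and 284.7 in the monocultures. Ndufa5 rose by 0.79 (0.41 to 1.18, limma adjusted p = 0.0044). The 5-day libraries of Ndufa5 lay above all others.

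Ndufa3, a membrane-spanning subunit at the foot of the matrix arm, had 851.8, 1058.0 and 907.6 normalised counts in the 5-day co-cultures, 636.0, 880.6 and 921.0 in the 3-day co-cultures, and 595.4, 621.0 and 563.0 in the monocultures. Both co-cultures lay above the monocultures, and they overlapped each other. Ndufa3 rose by 0.66 at 5 days against monoculture (95% interval 0.28 to 1.04, limma adjusted p = 0.013). Ndufa12 joins the matrix arm late in assembly, taking the place of its paralog, the assembly factor Ndufaf2. It had 124.9, 204.0 and 147.3 normalised counts in the 5-day co-cultures, 91.3, 121.8 and 132.2 in the 3-day co-cultures, and 122.5, 64.9 and 68.1 in the monocultures. The rise at 5 days was 0.92 (0.37 to 1.47, limma adjusted p = 0.017). Ndufaf2 had 76.4, 70.8 and 104.9 in the 5-day co-cultures, 69.7, 100.2 and 69.6 in the 3-day co-cultures, and 126.9, 40.9 and 56.6 in the monocultures. Its groups overlapped, with a log2 fold change of 0.31 at 5 days (-0.38 to 1.00, limma adjusted p = 0.55). Both paralogs were highest among the monocultures in replicate 1, whose value in Ndufa12 lay just under the lowest 5-day library. The Ndufa12 call was lost without replicate 2 of the 5-day co-culture or without replicate 2 or 3 of the monoculture.

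The other 8 Ndufa-named accessory subunits did not pass the test at 5 days. Ndufa2, a thioredoxin-like subunit of the matrix arm, came closest. It had 1344.1, 1229.4 and 1486.9 normalised counts in the 5-day co-cultures, 895.1, 1069.2 and 802.8 in the 3-day co-cultures, and 877.6, 1029.6 and 1020.6 in the monocultures. Its log2 fold change at 5 days against monoculture was 0.47 (95% interval 0.11 to 0.83, limma adjusted p = 0.056). Every 5-day library lay above every other library. The log2 fold changes of Ndufa1, Ndufa6, Ndufa7, Ndufa8, Ndufa9, Ndufa10 and Ndufab1, the last of which encodes the mitochondrial acyl carrier protein, lay between 0.08 (Ndufa7) and 0.41 (Ndufa9).

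Of the 3 accessory subunits with Ndufs or Ndufv names, 0 passed the limma test at 5 days against monoculture, with a median log2 fold change of 0.46. At an unadjusted p under 0.05 there was 1, Ndufs6, where 3777 of all 10639 tested genes had one. On recovered reads edgeR and DESeq2 called 0. Ndufs6 was called without replicate 1 of the 5-day co-culture, and Ndufs4 was called without replicate 3. Ndufs6, which carries zinc and is needed for the last steps of assembly, had 531.9, 650.1 and 759.0 normalised counts in the 5-day co-cultures, 405.2, 490.1 and 417.4 in the 3-day co-cultures, and 407.2, 521.1 and 470.5 in the monocultures. Its 5-day libraries lay above all others, with a log2 fold change of 0.46 (95% interval 0.08 to 0.85, limma adjusted p = 0.074). Ndufv3, a small partner of the NADH-binding subunits, had 689.1, 815.0 and 819.0 in the 5-day co-cultures, 431.8, 639.7 and 548.2 in the 3-day co-cultures, and 600.3, 736.9 and 563.0 in the monocultures. The 5-day libraries of Ndufv3 overlapped the monocultures, with a log2 fold change of 0.29 (limma adjusted p = 0.28). Ndufs4, mutated in a mouse model of Leigh syndrome, had 348.6, 391.2 and 127.3 in the 5-day co-cultures, 177.7, 245.0 and 329.7 in the 3-day co-cultures, and 106.5, 277.8 and 190.9 in the monocultures. All its groups overlapped, with a log2 fold change of 0.54 at 5 days against monoculture (-0.28 to 1.35, limma adjusted p = 0.35).

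Of the 7 core subunits, 1 passed the test at 5 days against monoculture, Ndufs1. This is 14.3%, where 12.6% of all tested genes were called higher. With counts of 0 or 1, groups as small as these 7, the 3 Ndufs or Ndufv accessory subunits and the 5 assembly factors cannot be told apart from that share. Ndufs1, the largest subunit of the complex, carries iron-sulphur clusters on the path of electrons from NADH. It had 230.0, 241.2 and 273.4 normalised counts in the 5-day co-cultures, 149.5, 164.3 and 168.3 in the 3-day co-cultures, and 158.4, 132.7 and 147.2 in the monocultures. The 5-day libraries lay above all others, and Ndufs1 rose by 0.76 on the log2 scale at 5 days against monoculture (95% interval 0.40 to 1.12, limma adjusted p = 0.0040). On mm10 it lies at chr1:63143596-63176833 on the minus strand, and its exons overlap Eef1b2 and Ino80dos on the opposite strand. Eef1b2, a translation elongation factor, averaged 2015 ± 218 normalised counts at 5 days and 1903 ± 566 in the monocultures (SD, n = 3 each; limma adjusted p = 0.73).

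Ndufs3, Ndufs7, Ndufs8, Ndufv1 and Ndufv2 had log2 fold changes between 0.16 (Ndufs7) and 0.37 (Ndufs8) at 5 days against monoculture, and the median of all 7 was 0.21. Ndufv1, which binds NADH and flavin, had 305.5, 282.2 and 232.2 normalised counts in the 5-day co-cultures, 292.3, 300.7 and 243.5 in the 3-day co-cultures, and 262.4, 197.6 and 259.7 in the monocultures. Its groups overlapped, and its log2 fold change at 5 days was 0.19 (95% interval -0.20 to 0.58). The strand setting of the counting is not given in the sources used here. For the 16 members whose exons overlap a gene on the opposite strand, it is therefore uncertain whether reads in the shared bases were told apart. How many reads fell in those bases was not tested. In 3 members that rose at 5 days the overlap is on the same strand, where a strand setting would not separate reads in the shared bases. These are Ndufb2 (with Gm42420), Ndufb8 (with Gm20538) and Ndufb9 (with Gm49356).

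The 5 assembly factors, which are not part of the finished complex, had log2 fold changes between -0.12 (Ndufaf6) and 0.46 (Ndufaf7) at 5 days against monoculture, and 0 passed the limma test in any of the 3 comparisons. At an unadjusted p under 0.05 there was 1, Ndufaf3 at 3 days against monoculture, where 3496 of all 10639 tested genes had one. On recovered reads edgeR and DESeq2 called 0. Ndufaf3, which helps build the ubiquinone module, was the assembly factor with the smallest adjusted p, and this came at 3 days. It had 119.5, 82.0 and 77.4 normalised counts in the 5-day co-cultures, 127.9, 135.0 and 108.5 in the 3-day co-cultures, and 83.6, 90.8 and 85.5 in the monocultures. Every 3-day library lay above every monoculture, with a log2 fold change of 0.50 (95% interval 0.07 to 0.94, limma adjusted p = 0.099). Its exons overlap Impdh2 on the opposite strand, which averaged 91.5 ± 17.96 normalised counts at 3 days and 109.4 ± 26.3 in the monocultures (SD, n = 3 each).

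Ndufa4l2 was lower in both co-cultures, and at 5 days it moved the other way from the 14 subunits that rose. It encodes a mitochondrial paralog of Ndufa4 that is a known target of the hypoxia-inducible factor HIF-1 and has been described as restraining complex I activity when oxygen is low. It had 97.0, 154.6 and 93.6 normalised counts in the 5-day co-cultures, 106.3, 103.0 and 64.0 in the 3-day co-cultures, and 375.1, 492.2 and 303.4 in the monocultures. All 6 co-culture libraries lay below all monocultures, and the groups of both co-culture times overlapped. Ndufa4l2 fell by 1.76 on the log2 scale at 5 days (95% interval -2.30 to -1.23, limma adjusted p = 8.9e-05). At 3 days the log2 fold change was -2.09 (-2.63 to -1.56, limma adjusted p = 2.7e-05), and the gene was called in all 17 alternatives in both comparisons. Between 5 and 3 days it did not pass the test (log2 fold change 0.33, -0.21 to 0.87).

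On mm10 Ndufa4l2 lies at chr10:127514967-127517154 on the plus strand, where its exons overlap Shmt2, the mitochondrial serine hydroxymethyltransferase, on the opposite strand. Shmt2 averaged 231.4 ± 34.5 normalised counts in the 5-day co-cultures, 421.1 ± 86.3 in the 3-day co-cultures and 254.6 ± 36.1 in the monocultures (SD, n = 3 each). Shmt2 thus rose at 3 days against monoculture (log2 fold change 0.71, limma adjusted p = 0.018), in the opposite direction to Ndufa4l2, and did not pass the test at 5 days (-0.14, limma adjusted p = 0.68). Ndufa4, once counted as a complex I subunit and now placed in complex IV, had 265.1, 300.8 and 284.6 normalised counts in the 5-day co-cultures, 265.7, 325.1 and 257.4 in the 3-day co-cultures, and 342.9, 360.5 and 298.2 in the monocultures. Its groups overlapped, and its log2 fold change was -0.23 at 5 days (95% interval -0.59 to 0.13) and -0.24 at 3 days (-0.60 to 0.12).

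After 3 days of co-culture, Ndufa4l2 was the single member to pass the test against monoculture. The counts were 0 higher and 1 lower of 41, where 10.6% and 9.37% of all tested genes were called higher and lower, 20.0% in all. An unadjusted p under 0.05 was found in 4 of the 41 members and in 3496 of all 10639 tested genes. Besides Ndufa4l2, these were 3 members that were higher, Ndufa13, Ndufa3 and Ndufaf3. On recovered reads edgeR called 0 and DESeq2 called 1 member higher, which was Ndufa13. Ndufa13 had a log2 fold change of 0.54 (95% interval 0.13 to 0.96, limma adjusted p = 0.061) and Ndufa3 had 0.44 (0.06 to 0.81, limma adjusted p = 0.099). Without replicate 1 of the 3-day co-culture, the shallowest library and the lowest of its group for 26 of the 41 members, both were called and the number of calls was 3. Without replicate 1 of the monoculture it was 2, with Ndufa12 added. The log2 fold change was positive for 27 members, with a median of 0.21 against 0.00 over all tested genes. In 4 members, Ndufa3, Ndufaf3, Ndufb6 and Ndufb8, every 3-day library lay above every monoculture, where 19.2% of all tested genes did so, and in 3 members, Ndufa4l2, Ndufa8 and Ndufb7, every 3-day library lay below, where 18.1% did so.

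The 14 genes that rose at 5 days had log2 fold changes of 0.48 to 1.05 there (median 0.81), and of -0.25 (Ndufb7) to 0.54 (Ndufa13) at 3 days against monoculture (median 0.30), both measured against the same monoculture libraries. By role, the median log2 fold change at 3 days was 0.25 for the membrane arm, 0.16 for the accessory subunits with Ndufa names, -0.09 for those with Ndufs or Ndufv names, 0.14 for the core subunits and 0.34 for the assembly factors. The lowest value among the complex I subunits was -0.42 for Ndufab1 (95% interval -0.95 to 0.10), which had 130.3, 210.5 and 207.2 normalised counts in the 5-day co-cultures, 172.7, 86.3 and 109.9 in the 3-day co-cultures, and 160.3, 146.1 and 170.3 in the monocultures. Its groups overlapped in all 3 comparisons.

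Set directly against each other, the 5-day co-cultures were higher than the 3-day co-cultures in 3 members, Ndufb10, Ndufb7 and Ndufs1, and lower in 0. Of all tested genes 6.91% were called, 3.20% as higher and 3.71% as lower. Ndufb10 differed by 0.90 on the log2 scale (95% interval 0.57 to 1.24, limma adjusted p = 0.0025), Ndufb7 by 0.74 (0.39 to 1.08, limma adjusted p = 0.012) and Ndufs1 by 0.62 (0.26 to 0.98, limma adjusted p = 0.039). In each of these 3 genes the lowest 5-day library exceeded the highest 3-day library. The same held for 13 members in all, where 11.7% of all tested genes did so, and for 0 members in the other direction, where 12.9% did so. The log2 fold change was positive for 33 of the 41 members, with a median of 0.33 against -0.01 over all tested genes. An unadjusted p under 0.05 was found in 16 of the 41 members, all with a positive log2 fold change. Over all 10639 tested genes, 2375 had one, in either direction. On recovered reads edgeR called 3 members and DESeq2 called 4, all higher at 5 days. Among those that did not pass the adjusted threshold were Ndufa2 (0.56, limma adjusted p = 0.060), Ndufb9 (0.53, 0.075), Ndufs6 (0.55, 0.077) and Ndufb2 (0.50, 0.084). Ndufb10 kept its call in all 17 alternatives, Ndufb7 in 16 and Ndufs1 in 9. The call of Ndufs1 was lost under quantile normalization, in a fit of those groups alone and on leaving out any 1 of the 6 co-culture libraries. Without replicate 2 of the 5-day co-culture, Ndufb10 was the 1 member still called.

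The spread of the members within a group is given by the coefficient of variation. Its median over the 41 members was 13.8% in the 5-day co-cultures, 19.3% in the 3-day co-cultures and 8.82% in the monocultures. At 5 days it reached 55.8% (Ndufb4), at 3 days it ran from 3.64% (Ndufb7) to 67.2% (Ndufb4), and in the monocultures from 1.74% (Ndufa7) to 61.2% (Ndufaf2). Single libraries stood apart over many members. Replicate 2 of the 5-day co-culture was the highest of its group for 20 members and replicate 2 of the monoculture for 25. Replicate 1 was the lowest of its group for 19 members in the 5-day co-culture and for 22 in the monoculture.

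The rest of the respiratory chain was read from lists chosen by function. Of all tested genes, 12.6% were higher at 5 days and 10.6% at 3 days against monoculture, and 3.20% at 5 against 3 days. In the same order, 11.4%, 9.37% and 3.71% were lower. The counts of the lists are read against these shares, which is coarse for short lists such as complex II, where 1 gene is 14.3%. Of 35 tested genes for complexes III and IV and ATP synthase, which take electrons on to oxygen and use the proton gradient, 13 (37.1%) were higher and 0 lower at 5 days against monoculture, with a median log2 fold change of 0.43. Cox5a, a complex IV subunit, averaged 1081 ± 264 normalised counts in the 5-day co-cultures and 453.7 ± 23.0 in the monocultures (SD, n = 3 each), a log2 fold change of 1.22 (limma adjusted p = 0.00073). Another complex IV subunit, Cox7a2, rose by 1.07 at 5 days against monoculture (limma adjusted p = 0.00088) and by 0.83 at 5 against 3 days (limma adjusted p = 0.019). At 3 days against monoculture the list had 1 higher gene, Uqcr10, and 1 lower gene, Uqcrh, both of complex III, and at 5 against 3 days it had 3 higher (8.57%) and 0 lower. The 1 higher gene at 3 days is 2.86% of the list. Of 7 tested complex II genes, Sdhb and Sdhc (28.6%) rose at 5 days. Sdhd, a membrane anchor of the same complex, fell by 0.89 at 5 days (limma adjusted p = 0.020) and by 0.90 at 3 days (limma adjusted p = 0.023). Sdhaf3, a complex II assembly factor, was the 1 gene (14.3%) of that list that rose at 3 days, and at 5 against 3 days 0 of the 7 passed.

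Of 16 tested genes of the tricarboxylic acid cycle and pyruvate dehydrogenase, which supply complex I with NADH, 4 rose at 5 days against monoculture (25%), 1, Fh1, at 3 days (6.25%), and 3 at 5 against 3 days (18.8%), with 0 lower in each. Idh3a, of the NAD-dependent isocitrate dehydrogenase, had the smallest adjusted p of these at 5 days, with 314.3 ± 83.3 normalised counts in the 5-day co-cultures and 114.2 ± 18.05 in the monocultures (SD, n = 3 each), a log2 fold change of 1.43 (limma adjusted p = 0.00026). Of 11 complex I assembly factors outside the Nduf names, Tmem70 rose at 5 days against monoculture by 0.74 (limma adjusted p = 0.023) and Foxred1, a flavoprotein, rose at 3 days by 1.06 (limma adjusted p = 0.0050), with 0 others called in any comparison, so that each call is 9.09% of the list. Of 11 regulators of mitochondrial biogenesis, Esrra, the nuclear receptor that drives respiratory genes with its coactivators, rose by 0.94 at 5 days (limma adjusted p = 0.0036) and by 0.72 at 3 days (limma adjusted p = 0.022), and 0 others passed, also 9.09% of the list at each time. Of 14 genes of mitochondrial import and the outer membrane, 3 rose at 5 days (Timm17a, Vdac1 and Timm50, 21.4%). At 3 days Hspa9 and Timm50 rose (14.3%) while Tomm20 fell, and at 5 against 3 days 2 were higher (14.3%) and 1 was lower. Of 13 tested genes of iron-sulphur cluster assembly, 0 passed at 5 days, and at 3 days Hspa9 rose (7.69%) and Isca1 fell. Hspa9, the mitochondrial HSP70, is in both lists and was lower at 5 than at 3 days by 0.73 on the log2 scale (limma adjusted p = 0.017).

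**Figure D4:**
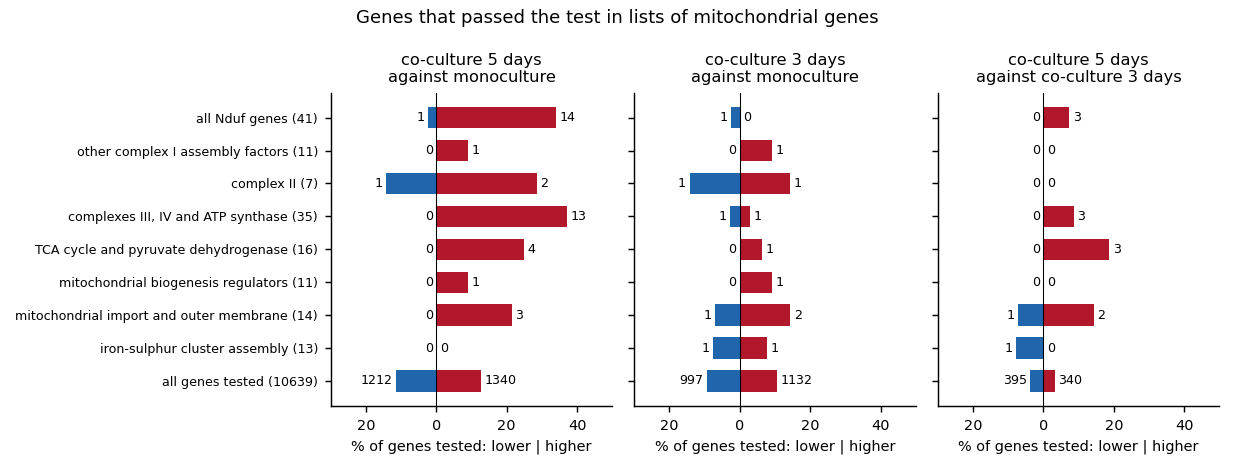
Share of the tested genes of each list (y axis, with the number tested) that passed the test as lower (blue, to the left of 0) or higher (red, to the right of 0), in percent (x axis), with the number of genes at each bar and 1 panel for each comparison. At 5 days against monoculture 14 of 41 Nduf genes and 13 of 35 genes of complexes III, IV and ATP synthase were higher, where 1340 of all 10639 tested genes were.

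Markers of carcinoma cells moved with the co-culture. Of 16 listed epithelial and carcinoma genes, 14 had a row in the table, and their summed normalised count was 1100.1 to 1531.7 in the 5-day co-cultures, 1114.6 to 1275.7 in the 3-day co-cultures and 54.9 to 82.8 in the monocultures. Of the 13 tested, 12 (92.3%) were higher at 5 days and 12 at 3 days against monoculture, where 12.6% and 10.6% of all tested genes were. Cldn3 and Elf3 were at 0 in all monocultures. Between 5 and 3 days Lcn2 alone passed, as lower (7.69%, where 3.71% of all tested genes were). Without passing, Krt8, Krt19 and Wfdc2 had every 5-day library above every 3-day library. They were 23.1% of the tested list, where 11.7% of all tested genes did so. Krt19, for example, had 76.4, 76.4 and 101.1 normalised counts in the 5-day co-cultures, 48.2, 53.6 and 34.8 in the 3-day co-cultures, and 21.7, 16.3 and 10.9 in the monocultures. Lcn2 alone had every 5-day library below every 3-day library, 7.69% of the tested list where 12.9% of all tested genes did so. Over the 13 tested genes, 7 log2 fold changes were positive and 6 negative at 5 against 3 days, with a median of 0.07. The summed counts of the 2 co-culture times overlapped. The part of carcinoma RNA in the Nduf values was not tested. Of 10 fibroblast markers, all were present, with sums of 38936.0 to 53343.1 in the 5-day co-cultures, 43599.0 to 54891.5 in the 3-day co-cultures and 43955.2 to 61303.0 in the monocultures. Of these, 5 were lower (50%) and 1 higher (10%) at 5 days against monoculture, where 11.4% and 12.6% of all tested genes were. At 3 days against monoculture 4 were lower (40%, where 9.37% of all tested genes were) and 0 higher. At 5 against 3 days 3 were lower (30%, where 3.71% of all tested genes were) and 1, Vim, higher (10%, where 3.20% were). Of 8 immune markers 3 had a row, with sums of 52.4 to 126.7 at 5 days, 107.9 to 287.5 at 3 days and 70.1 to 230.3 in the monocultures. Of these Csf1r averaged 6.43 ± 2.80 normalised counts in the 5-day co-cultures, 19.1 ± 5.26 in the 3-day co-cultures and 17.1 ± 0.917 in the monocultures (SD, n = 3 each), and passed as lower at 5 days in both comparisons. Of 6 endothelial markers Kdr alone had a row, with at most 11.8 in any library.

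Promoter sequence was available for 35 of the 41 members in RefSeq's GRCm38.p6 table, which gives 250 bases before to 50 after each annotated start, and those without an entry included Ndufa2, Ndufa4l2, Ndufaf6, Ndufb9 and Ndufs1. Letters that resemble known binding motifs of regulators of respiratory genes were searched on both strands, a gene with several starts counting once. For NRF1 the letters were GCGCA and GCGC with any 1 base between them, found in 5 of the 35 (14.3%), against 5.19% of 27025 genes in the table of promoters and 11.5% of the 9048 that also had a row in the counts. AANATGGCG, for YY1, was found in 7 of 35 (20.0%), against 2.76% and 5.98%. CCGGAAGT, for ETS factors such as GABP, was found in 1 of 35 (2.86%), against 4.31% and 9.13%, and ACGTG, for HIF, in 7 of 35 (20.0%), against 21.8% and 29.6%. Among the 12 members with a promoter that rose at 5 days, 1 held the NRF1 letters (8.33%) and 1 the YY1 letters (8.33%). Of the other 23, 4 (17.4%) and 6 (26.1%) held them. The HIF letters were in 2 of the 12 (16.7%) and 5 of the 23 (21.7%), and the ETS letters in 0 and 1 (4.35%). Differences between these small groups were not tested. A match is a description of letters, and the binding of a factor was not measured.

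The YY1 letters lay just after the annotated start in 5 genes, and these windows of at most 30 bases are shown because all 5 matches lie within a short stretch of the start. They are written 5′ to 3′ in the direction of the gene with the match in capitals. All 5 matches read AAGATGGCG and so hold ATG, the letters of a start codon. Whether translation starts there was not tested. The match begins 23 bases after the start in Ndufc1, 25 in Ndufs7, 30 in Ndufa9, 34 in Ndufs6 and 36 in Ndufs4. The windows are at chr3:51408915-51408943 (minus strand), chr10:80249463-80249491 (plus), chr6:126849097-126849125 (minus), chr13:73328433-73328459 (minus) and chr13:114388045-114388069 (minus) on GRCm38.p6. The NRF1 letters of Ndufa5, the 1 gene that rose at 5 days and held them, are shown last, at chr6:24527697-24527726 (minus).
Ndufc1: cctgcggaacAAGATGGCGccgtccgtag
Ndufs7: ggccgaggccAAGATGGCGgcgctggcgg
Ndufa9: attgtgggagAAGATGGCGgccgccgtcc
Ndufs6: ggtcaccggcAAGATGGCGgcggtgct
Ndufs4: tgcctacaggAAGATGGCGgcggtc
Ndufa5: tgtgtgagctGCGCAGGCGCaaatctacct
Of these 6 genes, Ndufc1 and Ndufa5 rose at 5 days against monoculture, by 0.87 and 0.79 on the log2 scale, while Ndufs7, Ndufa9, Ndufs6 and Ndufs4 had log2 fold changes of 0.16, 0.41, 0.46 and 0.54 that did not pass the test.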

How the data were processed

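The 9 libraries of 3′ end mRNA were processed with bcl2fastq, STAR 2.4.2a and HTSeq on mm10, per the submitters' processing notes. Strand setting, annotation, gene filter and normalization factors are not given in the sources used here. The authors deposited normalised counts, a signal in which the reads of a library were divided by its own factor. The lowest values were whole multiples of 1 read's worth (0.481 to 1.66 units). Division gave back the reads, with 99.8% to 100.0% of each library's values whole within 0.051. Columns were matched to samples by name, except that 1 column without mention of 4T1 cells was taken, by elimination, for the second 5-day co-culture library.

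A gene was tested if its value reached 5 in 3 or more of the 9 libraries, which 10639 genes did and 1292 did not. Testing used the lmFit and trended eBayes functions of limma 3.58.1 (R 4.3.3) on log2(value + 1) with 1 mean per group, two-sided, adjusted by Benjamini-Hochberg over all tested genes at a threshold of 0.05. Fold changes on this scale understate the change of low genes. Tried beside it were other pseudocounts (0.5, 5), other filters (none; mean 20 or more), scaling by median of ratios, TMM or quantiles, the replicate number as a block, fits restricted to the groups compared, edgeR 4.0.16 and DESeq2 1.42.0 on recovered reads, and omission of each library. On those reads edgeR called 14 members at 5 days and 1 at 3 days against monoculture, and 3 at 5 against 3 days. The scripts were tested on simulated data.

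The members and the lists were chosen with earlier results of these data known. Every member entered the fits and counts, and 1 is not reported here by name. Values per library are given for members called in any comparison, those with the smallest adjusted p or highest level of a role where none was called, the paralogs Ndufa4, Ndufa4l2, Ndufa12 and Ndufaf2, and, chosen after their values were seen, Ndufa2, Ndufab1, Ndufb4, Ndufs4 and Ndufv1. Up to 3 called genes of another list are named by the smallest adjusted p. Outside this rule, the epithelial and carcinoma markers Krt8, Krt19, Cldn3 and Elf3 were named for their values. GENCODE M21 gave the mm10 positions, and 41 of 41 members matched by symbol.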

Additional observations from a re-analysis of the deposited data

Results flagged for a closer look

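The level in co-culture differed between 5 and 3 days in 3 Nduf genes, each tested by setting the co-cultures directly against each other. They made up 7.32% of the 41 members, where 6.91% of all tested genes were called, 3.20% as higher and 3.71% as lower. No monoculture of 3 days was analysed, so time in culture and time with 4T1 cells cannot be told apart here. The 5-day co-cultures exceeded the 3-day co-cultures by 0.90 on the log2 scale in Ndufb10 (limma adjusted p = 0.0025), by 0.74 in Ndufb7 (limma adjusted p = 0.012) and by 0.62 in Ndufs1 (limma adjusted p = 0.039). In all 3 genes the 5-day and 3-day libraries did not overlap, and the call of Ndufs1 was lost in 8 of 17 alternatives. Groups of 3 libraries are too small to test for a library far from the others.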

How the results depend on the processing

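Of the gene fold changes recomputed, those of the 15 members called in a comparison, none changed direction under the 17 alternatives. Against monoculture at 5 days, the 15 Nduf calls became 12 to 16 under other scalings, fits and tools, and 9 to 15 with 1 library left out. Of the 15 genes, 8 kept their call in all 17 alternatives, Ndufa13, Ndufa4l2, Ndufa5, Ndufb10, Ndufb8, Ndufb9, Ndufc1 and Ndufs1. At 3 days against monoculture, 1 Nduf gene was called, against 2 with DESeq2 on recovered reads and 1 to 3 with 1 library left out. At 5 against 3 days, 3 Nduf genes were called, and 1 to 3 with 1 library left out; over all genes 735 were called there, and 323 to 693 with 1 library left out. Same-numbered libraries had correlations of deviations from -0.11 to 0.23, and libraries with different numbers from -0.30 to 0.32. With 3 libraries in each group, these values cannot settle whether the replicate numbers pair the libraries. With the replicate block 2 Nduf genes were called at 3 days (Ndufa13 added), 15 at 5 days, and 4 at 5 against 3 days (Ndufb3 added). The cause of these shifts was not tested. Libraries of 1048471 to 3567326 reads limit the precision of members with few reads, such as Ndufaf6 and Ndufaf7, whose lowest libraries held 11 reads.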
